A study of Mus musculus with 48 samples.

Results

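Cyclic AMP is made by adenylyl cyclases and, with cyclic GMP, broken down by phosphodiesterases, and the genes for these enzymes and for kinase A were followed here in sorted enteroendocrine cells of 3 gut regions. In these cells, cyclic AMP raised by G protein-coupled receptors is known to promote the release of gut hormones. Kinase A is a tetramer in which regulatory subunits hold catalytic subunits inactive until cyclic AMP binds. The members were the protein-coding genes named as adenylyl cyclases (Adcy), as phosphodiesterases of families 1 to 5 and 7 to 11 (Pde), and as catalytic (Prkaca, Prkacb) or regulatory (Prkar1a, Prkar1b, Prkar2a, Prkar2b) subunits of kinase A. There were 34 of them among 21942 protein-coding genes in the table, namely 10 Adcy, 18 Pde, 2 Prkac and 4 Prkar genes.

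All mice were lean C57BL6 males of about 20 weeks that carried Neurod1-cre-eYFP, so that cells with a history of NeuroD1 expression, which marks the enteroendocrine lineage, were labelled and could be sorted. One group had vertical sleeve gastrectomy (VSG), in which about 70% of the stomach is removed, and also received weekly vitamin B12. The other groups had sham surgery and were fed ad libitum (sham ad libitum) or were given limited food to hold their weight at that of the VSG mice (sham weight-matched). All were fasted overnight 6 weeks after surgery, given 3 g/kg glucose by gavage and killed about 15 min later. Cells came from the uppermost 5 cm of small intestine, named duodenum below, its last 15 cm, named ileum, and colon plus rectum, named colon, giving 48 libraries from 17 mice. In each region 6 libraries were from VSG mice and 5 from each sham group. Each library came from 1 mouse, and 15 mice had all 3 regions.

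Total counts ran from 4648651 to 17182463 per library. The enteroendocrine markers (Neurod1, Chga, Chgb, Scg2, Scg3, Pcsk1 and Insm1) summed to a median of 55146 CPM (counts scaled to library size by TMM) in duodenum, 43150 in ileum and 46689 in colon. Chga and Chgb made up most of this sum. Of the other markers, Scg2 had region means of 1092, 412 and 31.58 CPM, Pcsk1 934.9, 753.8 and 113.1, Scg3 355.7, 250.5 and 111.2, Neurod1 659.6, 411.8 and 255.1, and Insm1 198, 200.6 and 233.6. Markers of other epithelial cells moved with region: the 7 enterocyte genes summed to medians of 5665, 7027 and 396.2 CPM in duodenum, ileum and colon, the 5 crypt genes to 1125, 2015 and 114.2, the 5 goblet genes to 3425, 3809 and 9022, the 5 colonocyte genes to 117.3, 164.6 and 1369, and the 4 Paneth genes to 208.3, 1836 and 15.07. Olfm4 made up most of the crypt sum in duodenum and ileum, with region means of 899.1, 1682 and 4.953 CPM. Mki67 (129.1, 185 and 72.2) and Top2a (109, 150.2 and 38.99) were also lower in colon than in duodenum. Lgr5 (13.51, 42.38 and 11.9) and Ascl2 (2.785, 5.768 and 3.344) were close in these regions. The goblet gene Tff3 (206.7, 163.7 and 124.7) and the colonocyte gene Ceacam20 (73.81, 81.48 and 60.81) were lowest in colon. The other genes of both lists were highest there. Immune, stromal and neural markers had median sums of at most 4.394 CPM in any region. Tuft genes summed to medians of 21.38, 24.13 and 35.98 CPM in duodenum, ileum and colon, endothelial genes to 14.93, 21.86 and 21.41 and acinar genes to 6.444, 4.851 and 50.6. Pecam1 made up most of the endothelial sum and Cela1 nearly all of the acinar sum. What part these cells had in the values below was not tested, and in such bulk samples fewer cells of a type and less RNA per cell cannot be told apart. The duodenum library of sham weight-matched mouse 27 stood apart. This library had an enteroendocrine sum of 11567 CPM against 36743 to 72959 in the other duodenum libraries, and enterocyte and immune sums of 36938 and 32.23 CPM. For several genes with their extreme duodenum value in it, differences are also given without it, a comparison added after seeing the data. Otherwise, differences from duodenum include this library, as for Prkar1a, Prkar1b and Pde5a. Mouse 12 has ileum and colon libraries whose tissue names contradict their description codes. Tissue names were followed, and with them the ileum markers Fabp6 and Slc10a2 summed to 1054 CPM in its ileum library and 27.77 in its colon library.

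The sequences shown are start-site windows of kinase A genes, because CREB, the transcription factor that kinase A phosphorylates, binds the cyclic AMP response element TGACGTCA and its shorter core TGACG. RefSeq windows (build GRCm38.p6, 250 bases before to 50 after a start site) were given for 28 of 34 members and not for Adcy6, Adcy8, Pde3a, Pde3b, Pde7a and Pde9a. On both strands the whole element was present for 1 of the 28 members, Prkar1a, and in 1.79% of all 32851 windows. It stood in 2 overlapping windows of Prkar1a, 49 bases before the start site in the window printed and downstream of the start site in the other. The core TGACG, which the whole element contains, was present in at least 1 window of 13 members and in 20.8% of all windows. Among the kinase A genes only Prkar2b lacked it. A member could have several windows, so these shares are not on the same footing. Below are Prkar1a (chr11:109650699-109650998, plus strand), Prkaca (chr8:83972728-83973027, plus strand) and Prkacb (chr3:146812897-146813196, minus strand). Capitals mark the whole element or the core, which reads CGTCA when it lies on the other strand.
Prkar1a: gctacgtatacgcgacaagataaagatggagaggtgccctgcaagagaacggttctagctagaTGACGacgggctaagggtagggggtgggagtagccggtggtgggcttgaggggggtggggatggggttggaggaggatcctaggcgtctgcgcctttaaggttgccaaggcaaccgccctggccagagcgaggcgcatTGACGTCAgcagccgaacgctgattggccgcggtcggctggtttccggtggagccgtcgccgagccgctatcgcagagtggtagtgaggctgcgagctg
Prkaca: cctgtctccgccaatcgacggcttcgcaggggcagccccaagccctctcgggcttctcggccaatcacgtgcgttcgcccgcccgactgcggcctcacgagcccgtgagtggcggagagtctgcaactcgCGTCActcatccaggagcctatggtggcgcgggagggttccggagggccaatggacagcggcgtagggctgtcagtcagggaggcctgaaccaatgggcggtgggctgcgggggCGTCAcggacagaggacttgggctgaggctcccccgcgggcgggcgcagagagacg
Prkacb: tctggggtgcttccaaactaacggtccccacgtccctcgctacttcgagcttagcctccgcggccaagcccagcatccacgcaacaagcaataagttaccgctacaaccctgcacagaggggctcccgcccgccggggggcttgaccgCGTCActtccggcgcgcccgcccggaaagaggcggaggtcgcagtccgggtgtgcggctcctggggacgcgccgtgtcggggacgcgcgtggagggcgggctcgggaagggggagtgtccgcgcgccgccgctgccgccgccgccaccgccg
These matches describe letters in the windows, and no binding was measured.

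Of the 34 members, 28 passed the filter on low counts and were tested, 27 of them with enough counts in each of the 3 regions taken alone. Pde2a passed only over the regions together. The 6 that were too low had 221 (Adcy3), 106 (Adcy7), 68 (Adcy4), 56 (Adcy10), 20 (Pde1a) and 1 (Pde4c) counts over all 48 libraries. Exons of Adcy3 and Pde2a overlapped another gene over 22.1% and 64.3% of their bases, and those of Prkar1b, Adcy6, Pde9a, Pde8b, Pde3a, Adcy2, Pde7a and Pde5a over less than 10%. Strand use in the counting was not stated, so these counts are uncertain to that extent.

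Whether the genes differ along the gut was asked first, averaged over the surgery groups. Most members differed between colon and small intestine, and the largest differences were those of the adenylyl cyclase genes Adcy8 and Adcy5. Adcy8, a calcium-stimulated cyclase, was much higher in the small intestine than in the colon, where it was nearly absent. Adcy5, a cyclase inhibited by calcium, had the opposite pattern. Between colon and duodenum 20 of 28 members passed edgeR's quasi-likelihood test at an adjusted p of 0.05, 12 higher in colon and 8 lower, where 55.0% of all 15126 genes tested passed (26.8% higher and 28.3% lower). Between colon and ileum 21 passed, 13 higher and 8 lower in colon (49.2% of all genes, 23.8% higher and 25.4% lower). Between ileum and duodenum 12 passed, 5 higher and 7 lower in ileum (33.8% of all genes, 17.2% higher and 16.6% lower). The median absolute log2 fold change over the tested members was 0.55, 0.71 and 0.31 in these comparisons, beside 0.41, 0.35 and 0.26 over all genes tested. Between colon and ileum, 5 members had CPM ranges that did not overlap, Adcy5, Pde3b, Pde7a and Prkacb (higher in colon) and Adcy8 (lower), as did 7.14% of all genes. Between colon and duodenum 3 did, Adcy5, Prkar2b and Adcy8 (9.75% of all genes), and between ileum and duodenum 0 members did (1.46% of all genes).

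**Figure D1:**
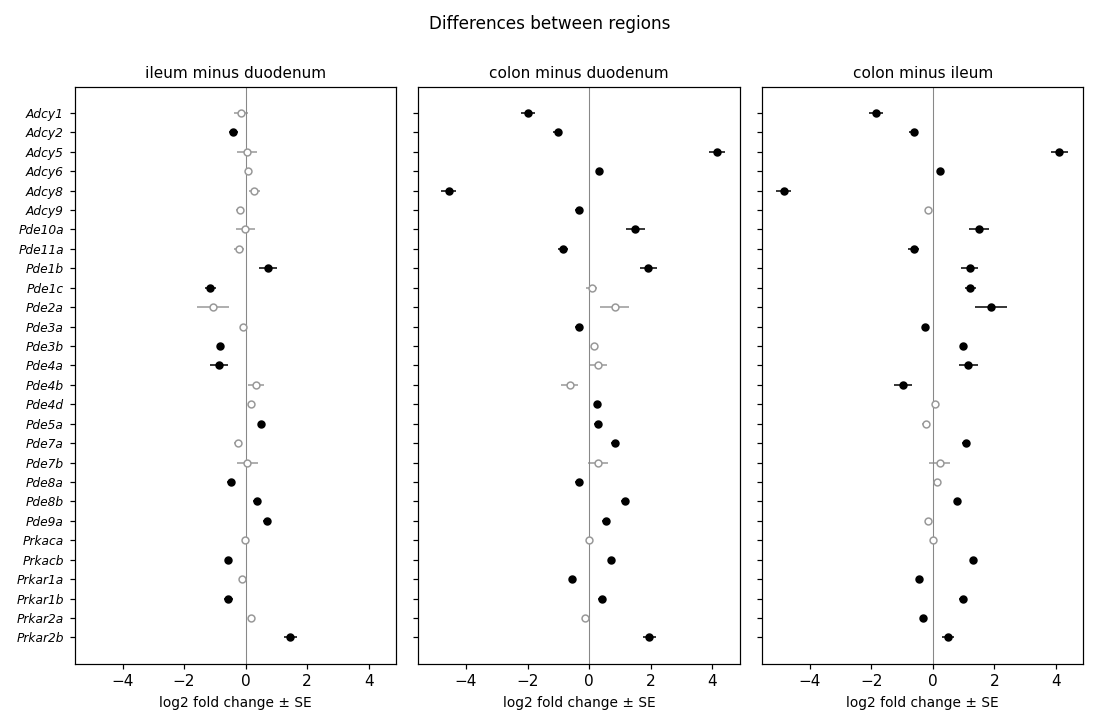
Log2 fold changes (x axis, ± standard error) of the 28 tested members between regions, averaged over the surgery groups. Filled black points passed the adjusted threshold and open grey points did not. Adcy5 and Adcy8 lie beyond 4 on either side of 0 in both colon comparisons and near 0 between ileum and duodenum.

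Library index and region were largely confounded. Of the 16 duodenum libraries, 12 carried a D5 index that no library of another region had, and 11 of 16 colon libraries carried an index shared with 1 ileum library. The other 4 duodenum libraries carried index 1, as did 7 ileum libraries and 1 colon library. These 4 duodenum libraries came from sham mice only and included that of mouse 27. Differences from duodenum with the index as a covariate depend on these 4, and the part that mouse 27 had in them was not tested. With the D5 index as a covariate, 2 members differed between ileum and duodenum (11.3% of all genes). Colon differed from duodenum in 9 members (28% of all genes) and from ileum in 17 (37.8%). Within index 3, which held 4 colon and 8 ileum libraries, all 21 members that differed between colon and ileum had means in the same direction, and 9 of them had ranges that did not overlap (15.4% of all genes tested). Within index 1, with 7 ileum and 4 duodenum libraries, 11 of the 12 members that differed between ileum and duodenum had means in the same direction, Adcy2 being the exception, and 2 had ranges that did not overlap, Pde8b and Prkar2b (6.14% of all genes). The duodenum means and ranges here include the library of mouse 27, which had the lowest Adcy2 value of the 4 (21.25 CPM). These means were not taken without it.

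In the annotation (GENCODE M21, build GRCm38) the gene is Adcy8 (ENSMUSG00000022376, chr15:64697084-64922296, minus strand). Adcy8 had a lowest, median and highest value of 7.805, 48.04 and 73.64 CPM in duodenum, 39.07, 60.5 and 114.4 in ileum and 0.4193, 1.77 and 3.917 in colon. Every small intestinal library was above every colon library. The lowest duodenum value was that of mouse 27, and the next was 39.26 CPM. Adcy8 was lower in colon than in duodenum by -4.56 ± 0.23 on the log2 scale (fold change ± standard error here and below, adjusted p = 4.78e-21) and than in ileum by -4.84 ± 0.24 (adjusted p = 1.84e-21), in 15 of 15 and 16 of 16 mice with both regions. Without mouse 27 the difference from duodenum was -4.63 ± 0.19. With the D5 index as a covariate the values were -3.88 ± 0.49 and -4.86 ± 0.30. Ileum and duodenum differed by 0.28 ± 0.18, which did not pass (adjusted p = 0.254).

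For Adcy5 (ENSMUSG00000022840, chr16:35154877-35305738, plus strand) the order was the reverse. Adcy5 ran from 0.2024 to 2.773 CPM in duodenum (median 1.047) and from 0.1395 to 3.924 in ileum (median 0.7528), and from 9.679 to 33.37 in colon (median 21.55). All colon libraries were above all others. Its log2 fold change was 4.15 ± 0.27 between colon and duodenum (adjusted p = 2.55e-18) and 4.11 ± 0.28 between colon and ileum (adjusted p = 1.54e-17), higher in colon in 15 of 15 and 16 of 16 mice. With the D5 index as a covariate these were 3.44 ± 0.62 and 3.84 ± 0.32. Per kilobase of exon, the ratio of Adcy5 to Adcy8 had a median of 0.02374 in duodenum, 0.01567 in ileum and 10.69 in colon, with a lowest colon ratio of 4.766 and a highest small intestinal ratio of 0.2732.

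Adcy1, another calcium-stimulated cyclase, was also lower in colon. It had a median of 161.8 CPM in duodenum (37.72 to 208.5), 126.7 in ileum (51.01 to 212) and 35.36 in colon (4.822 to 82.5). The ranges overlapped, with the lowest duodenum value again that of mouse 27, and the lowest ileum and colon values those of VSG mouse 25. Adcy1 was lower in colon than in duodenum by -1.999 ± 0.23 (adjusted p = 4.92e-10) and than in ileum by -1.85 ± 0.23 (adjusted p = 4.33e-09), in every mouse with both regions. Without the duodenum library of mouse 27 the first was -2.06 ± 0.21. The first of these did not pass with the D5 index as a covariate (-1.20 ± 0.52, adjusted p = 0.0789), and the second did (-1.85 ± 0.32).

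Adcy2, a cyclase that G protein beta-gamma subunits can stimulate, was graded along the gut, at 83.59 ± 21.64 CPM in duodenum, 65.53 ± 22.15 in ileum and 41.05 ± 10.33 in colon (mean ± SD, n = 16 each). It differed in all 3 comparisons, by -1.02 ± 0.15 between colon and duodenum (adjusted p = 6.79e-08), -0.61 ± 0.15 between colon and ileum and -0.40 ± 0.14 between ileum and duodenum (adjusted p = 0.0266). The last value turned to 0.23 ± 0.29 and the first fell to -0.39 ± 0.34 (adjusted p = 0.437) with the D5 index as a covariate. Without the duodenum library of mouse 27 the differences from duodenum were -0.48 ± 0.12 in ileum and -1.08 ± 0.12 in colon. Without mouse 12, 16, 21 or 29 the ileum to duodenum difference did not pass, with adjusted p from 0.0527 to 0.0736.

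Adcy6 and Adcy9, which are widely expressed, changed least. Adcy6 was at 110.5 ± 14.29, 117.1 ± 21.96 and 137.1 ± 25.4 CPM in duodenum, ileum and colon, higher in colon than in duodenum by 0.31 ± 0.09 (adjusted p = 0.00228) and than in ileum by 0.22 ± 0.09 (adjusted p = 0.0326), neither of which passed with the D5 index as a covariate. The difference from ileum also did not pass without mouse 16, 19, 22, 27 or 32 (adjusted p from 0.0523 to 0.0772). Adcy9 was lower in colon than in duodenum by -0.34 ± 0.11, and this too did not pass with the index (-0.03, adjusted p = 0.95).

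Levels of different genes can be set side by side only per length, so shares of the summed Adcy level per kilobase of exon were taken in each library. In duodenum Adcy2 held 31% ± 6.763 (SD over 16 libraries), Adcy6 26.28% ± 4.813, Adcy1 18.75% ± 4.256, Adcy9 13.88% ± 3.522 and Adcy8 9.583% ± 2.241. In ileum Adcy6 held 29.52% ± 6.059, Adcy2 25.86% ± 6.009, Adcy1 18.27% ± 4.566, and Adcy9 and Adcy8 12.82% ± 2.213 and 12.76% ± 1.796. In colon Adcy6 alone held 47.09% ± 7.65, followed by Adcy2 (22.64% ± 5.202), Adcy9 (15.43% ± 2.6), Adcy5 (6.874% ± 2.625) and Adcy1 (6.787% ± 3.003). In both small intestinal regions the shares of Adcy2 and Adcy6 differed by less than 1 SD, as did those of Adcy5 and Adcy1 in colon and of Adcy8 and Adcy9 in ileum. The summed level was 63.4 ± 10.58 CPM per kilobase in duodenum, 59.35 ± 10.02 in ileum and 43.14 ± 6.156 in colon.

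**Figure D2:**
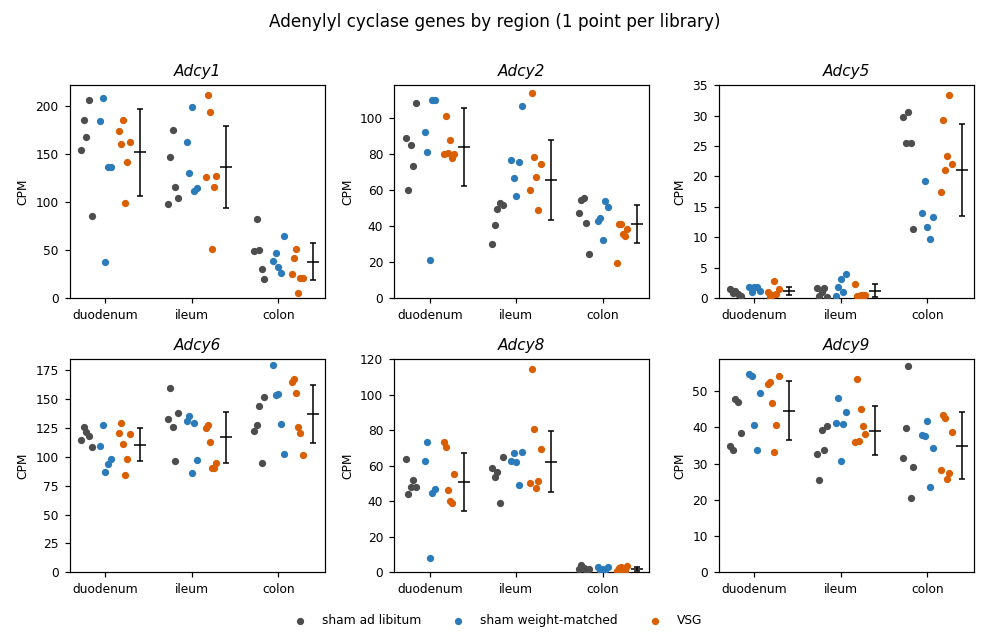
TMM-scaled CPM (y axis, linear from 0) of the 6 tested adenylyl cyclase genes in duodenum, ileum and colon, with 1 point per library coloured by surgery group and the mean ± SD of each region in black. Adcy8 stays under 4 CPM in all colon libraries and Adcy5 under 4 CPM in all small intestinal libraries, and the low duodenum point of Adcy1, Adcy2 and Adcy8 is mouse 27.

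Over all libraries and with the union of exons as length, the phosphodiesterases with the highest levels per length were Pde9a, specific for cyclic GMP (23.16 CPM per kilobase), Pde11a, which accepts both nucleotides (15.79), and Pde5a, specific for cyclic GMP (7.741). The order depended on region and length. In duodenum the share of Pde11a was above that of Pde9a (26.81% against 23.62%), and the shares of Pde3b and Pde8a above that of Pde5a (9.718% and 9.567% against 8.799%), each by less than 1 SD. With the longest transcript as length Pde4d had a larger share than Pde5a in duodenum and colon. Pde9a had a median of 57.26 CPM in duodenum (39.3 to 133.4), 90.92 in ileum (69.87 to 143) and 87.59 in colon (60.73 to 117.4). The highest duodenum value was mouse 27, and without that library the ileum was higher than duodenum by 0.82 ± 0.08 rather than 0.68 ± 0.11 (adjusted p = 1.19e-06). Colon was higher than duodenum by 0.53 ± 0.11 (adjusted p = 2.88e-05), or by 0.68 ± 0.08 without mouse 27. Neither difference passed with the D5 index as a covariate (0.23 ± 0.17 and 0.09 ± 0.20).

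Pde5a was at 62.71 ± 16.86 CPM in duodenum, 89.05 ± 20.17 in ileum and 76.54 ± 11.61 in colon, higher in ileum than in duodenum by 0.51 ± 0.11 (adjusted p = 0.000165), which did not pass with the index (0.13, adjusted p = 0.737). Pde11a was lower in colon, with a median of 57.58 CPM (31.28 to 81.4) against 109.1 in duodenum (19.95 to 137.9) and 84.35 in ileum (46.82 to 175.7). It differed by -0.84 ± 0.17 from duodenum (adjusted p = 3.51e-05) and -0.62 ± 0.17 from ileum (adjusted p = 0.00179). Without mouse 27 the former was -0.91 ± 0.14. With the index these were 0.21 (adjusted p = 0.749) and -0.44 (adjusted p = 0.101). Shares of the summed Pde level per kilobase were 23.62% ± 8.044 for Pde9a and 26.81% ± 6.528 for Pde11a in duodenum, 35.24% ± 6.169 and 21.56% ± 6.057 in ileum, and 32.54% ± 4.474 and 14.06% ± 3.233 in colon.

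A set of phosphodiesterase genes was lowest in the ileum. Pde3b, of a cyclic AMP-hydrolysing family inhibited by cyclic GMP, had a median of 66.78 CPM in duodenum (34.25 to 80.41), 35.8 in ileum (20.57 to 46.99) and 70.75 in colon (48.78 to 96.16). Every colon library was above every ileum library. The ileum was lower than duodenum by -0.83 ± 0.10 (adjusted p = 2.93e-09, lower in 14 of 15 mice) and the colon higher than ileum by 0.97 ± 0.10 (adjusted p = 1.04e-11, higher in 16 of 16), whereas colon and duodenum differed by 0.14 ± 0.10 (adjusted p = 0.21). Without mouse 27 the ileum to duodenum difference was -0.88 ± 0.09. With the D5 index as a covariate it was -0.50 ± 0.18 (adjusted p = 0.0575) and the colon to ileum difference 0.95 ± 0.12.

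Pde1c, which is activated by calcium and calmodulin, had the same order, at 32.15 ± 9.805, 14.65 ± 5.434 and 33.86 ± 10.83 CPM in duodenum, ileum and colon. Its ileum level was lower than that of duodenum by -1.15 ± 0.17 (adjusted p = 7.8e-07) and its colon level higher than that of ileum by 1.23 ± 0.17 (adjusted p = 7.56e-08). Without mouse 27 the former was -1.23 ± 0.15. With the index it was -0.24 ± 0.33 (adjusted p = 0.715) and the latter 1.36 ± 0.20. Pde4a, a cyclic AMP-specific gene of low level, did likewise at 2.228, 1.194 and 2.692 CPM, with differences of -0.87 ± 0.30 (adjusted p = 0.0188) and 1.16 ± 0.30 (adjusted p = 0.000967). The former did not pass with the index (-0.80, adjusted p = 0.402) or without mouse 12 (adjusted p = 0.0563) or 21 (adjusted p = 0.05), and the latter passed with it (1.42, adjusted p = 0.00288). Pde2a, a cyclic GMP-stimulated gene that overlaps a predicted gene on the same strand over most of its exons, was higher in colon than in ileum by 1.89 ± 0.52 (adjusted p = 0.00203) with 225 counts in all.

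Other phosphodiesterase genes were highest in the colon. Pde8b, cyclic AMP-specific and of high affinity, rose in steps, with medians of 8.224 CPM in duodenum (6.195 to 16.46), 11.77 in ileum (8.047 to 18.32) and 21.71 in colon (14.61 to 29.03). It was higher in colon than in duodenum by 1.17 ± 0.12 (adjusted p = 1.36e-11) and than in ileum by 0.80 ± 0.12 (adjusted p = 2.46e-07), in every mouse with both regions, and both passed with the index (1.35 ± 0.28 and 0.68 ± 0.16). Pde7a, also cyclic AMP-specific, was at 14.68 ± 3.783, 12.32 ± 2.413 and 26.0 ± 5.697 CPM, higher in colon than in ileum by 1.08 ± 0.13 and than in duodenum by 0.83 ± 0.12.

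Pde10a, which accepts both nucleotides, was at 1.948 ± 0.8953, 2.055 ± 1.388 and 5.52 ± 2.484 CPM. It was higher in colon than in ileum by 1.503 ± 0.31 (adjusted p = 7.36e-05) and than in duodenum by 1.49 ± 0.31 (adjusted p = 4.96e-05), the latter not passing with the index (1.49, adjusted p = 0.152). Pde1b, another calcium and calmodulin-activated gene, was at 2.067 ± 1.083, 3.491 ± 2.258 and 7.981 ± 2.759 CPM, higher in colon than in duodenum by 1.93 ± 0.28 (adjusted p = 7.19e-08) and than in ileum by 1.20 ± 0.27. With the index the former was 0.51 and did not pass (adjusted p = 0.606), and the latter was 0.89 (adjusted p = 0.0377). Its ileum to duodenum difference of 0.73 ± 0.28 (adjusted p = 0.0425) did not pass with the mouse as a replicate block, whether fixed in edgeR (0.63, adjusted p = 0.0853) or random in limma voom (0.55, adjusted p = 0.172), and was -0.38 with the index. In the other direction, Pde4b, cyclic AMP-specific, was lower in colon than in ileum by -0.97 ± 0.28 (adjusted p = 0.00376), at 2.102 ± 1.448 against 3.895 ± 1.77 CPM, which did not pass with the index (-0.84, adjusted p = 0.112).

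The remaining tested phosphodiesterase genes were Pde3a, Pde4d, Pde7b and Pde8a. Their called differences lay between -0.47 (Pde8a, ileum against duodenum) and 0.26 (Pde4d, colon against duodenum), and Pde7b passed in 0 of the 3 comparisons, with an unadjusted p under 0.05 in 0 of them by edgeR. With the index the Pde8a value was -0.04 (adjusted p = 0.955), and without mouse 27 it was -0.52. The Pde4d call ended without mouse 12, 13, 19, 28 or 31 (0.23 to 0.25), and the calls of Pde8a between colon and duodenum and of Pde3a between colon and ileum ended with the index and without several mice in turn. The summed Pde level per kilobase was 72.64 ± 5.373, 77.62 ± 7.992 and 76.99 ± 4.672 CPM in duodenum, ileum and colon, and these sums differed between regions by less than 1 SD. With the longest transcript as length they were 104.9 ± 7.543, 115.8 ± 11.97 and 116 ± 7.2, a difference of over 1 SD between duodenum and colon.

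**Figure D3:**
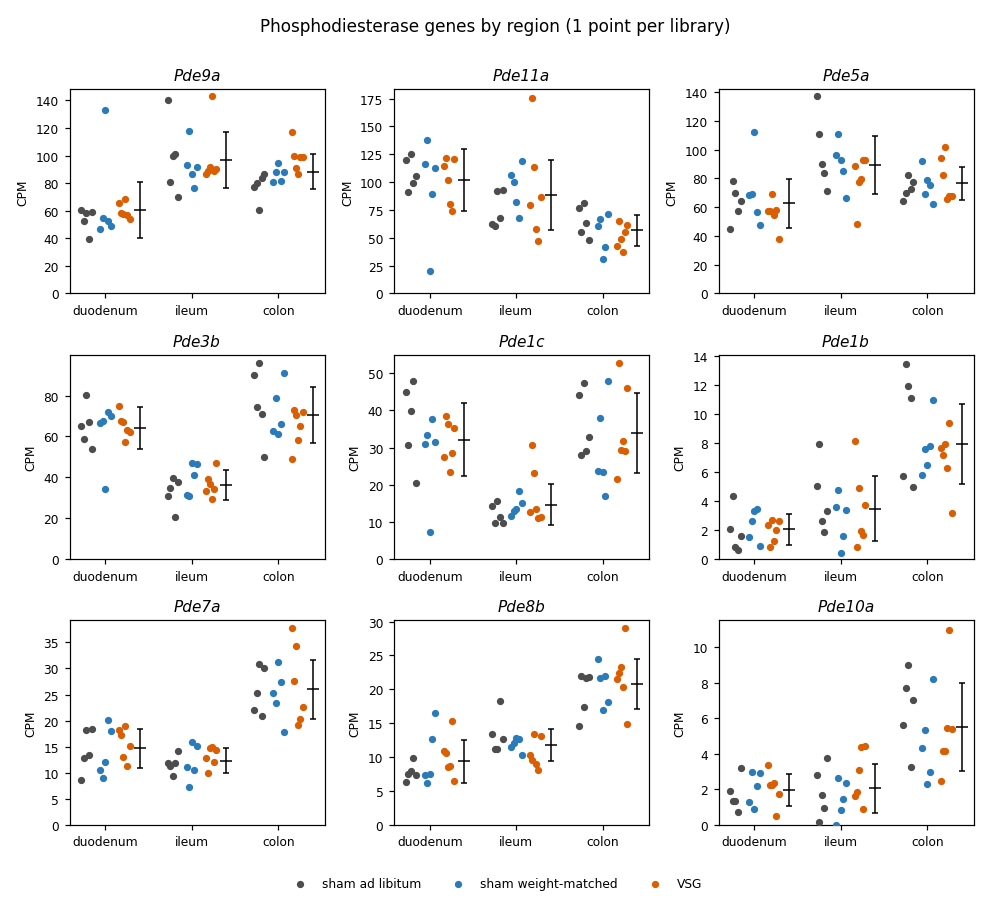
TMM-scaled CPM (y axis, linear from 0, scaled per gene) of 9 phosphodiesterase genes by region, with 1 point per library coloured by surgery group and the mean ± SD of each region in black. Pde3b and Pde1c are lowest in ileum, and Pde1b, Pde7a, Pde8b and Pde10a are highest in colon.

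The catalytic subunits of kinase A behaved differently from each other. They are Prkaca (ENSMUSG00000005469, chr8:83972993-83996443, plus strand) and Prkacb (ENSMUSG00000005034, chr3:146729574-146812990, minus strand). Prkaca had nearly the same level everywhere, with medians of 75.15 CPM in duodenum (59.1 to 81.4), 74.76 in ileum (57.89 to 85.03) and 74.07 in colon (55.95 to 87.32). Its log2 fold changes were -0.02, -0.01 and 0.02, each ± 0.06, and the lowest adjusted p was 0.821. Prkacb had medians of 65.58 CPM in duodenum (33.96 to 93.98), 45.73 in ileum (32.9 to 68.49) and 107.2 in colon (80.45 to 180). Every colon library was above every ileum library. Prkacb was higher in colon than in ileum by 1.30 ± 0.11 (adjusted p = 7.01e-15) and than in duodenum by 0.72 ± 0.10 (adjusted p = 5.29e-08), in every mouse with both regions, and lower in ileum than in duodenum by -0.58 ± 0.10 (adjusted p = 1.7e-05). Without mouse 27 the differences from duodenum were 0.68 ± 0.09 in colon and -0.64 ± 0.09 in ileum. With the index, the difference between ileum and duodenum did not pass (-0.15, adjusted p = 0.727) and the others did (1.38 ± 0.13 and 1.24 ± 0.24).

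Per kilobase of exon, Prkaca held 78.87% ± 3.372 of the catalytic level in duodenum, 84.42% ± 2.684 in ileum and 69.37% ± 3.861 in colon. With the longest transcript as the length, these shares were 67.02%, 74.66% and 55.21%, in the same order.

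The regulatory subunit Prkar1a had the highest level per length of all members, 65.79 CPM per kilobase over all libraries. It was at 329.7 ± 47.76 CPM in duodenum, 303.3 ± 47.97 in ileum and 219.9 ± 40.39 in colon, lower in colon than in duodenum by -0.57 ± 0.08 (adjusted p = 8.59e-08, lower in 15 of 15 mice) and than in ileum by -0.45 ± 0.08 (adjusted p = 1.34e-05). With the index these were -0.15 ± 0.19 (adjusted p = 0.608) and -0.32 ± 0.11 (adjusted p = 0.0185). Prkar2a, the next highest of the regulatory genes at 27.9 CPM per kilobase, was at 175.7 ± 34.91, 198.6 ± 21.96 and 159.5 ± 20.6 CPM, lower in colon than in ileum by -0.32 ± 0.08 (adjusted p = 0.000717).

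Prkar1b and Prkar2b, the isoforms best known from neural tissue, were both higher in colon than in duodenum, and Prkar2b was nearly as high in ileum. Prkar1b was at 33.97 ± 8.14, 22.92 ± 5.888 and 44.97 ± 15.69 CPM, higher in colon than in ileum by 0.99 ± 0.14 (adjusted p = 9.71e-08) and lower in ileum than in duodenum by -0.57 ± 0.14 (adjusted p = 0.00143), the latter not passing with the index (-0.26, adjusted p = 0.646). Between colon and duodenum Prkar1b differed by 0.42 ± 0.14 (adjusted p = 0.00989), which did not pass with the index (0.76, adjusted p = 0.0937). Prkar2b had medians of 2.352 CPM in duodenum (0.6994 to 5.109), 7.021 in ileum (2.232 to 11.12) and 8.133 in colon (5.241 to 13.52). Every colon library was above every duodenum library. Prkar2b was higher in ileum than in duodenum by 1.45 ± 0.21 (adjusted p = 3.53e-07) and in colon by 1.95 ± 0.21 (adjusted p = 4.22e-11), and both passed with the D5 index as a covariate (2.24 ± 0.41 and 2.79 ± 0.47). Prkar2b was also higher in colon than in ileum, but that call ended with the index (0.55, adjusted p = 0.0985). It ended too without mouse 11, 12, 13, 16, 19, 22, 29 or 31 in turn (0.43 to 0.50). Per kilobase, the sum of the 4 regulatory genes over that of the catalytic pair was 3.048 ± 0.3744 in duodenum, 3.204 ± 0.4492 in ileum and 2.129 ± 0.2495 in colon. This is a ratio of transcript levels and not of protein.

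**Figure D4:**
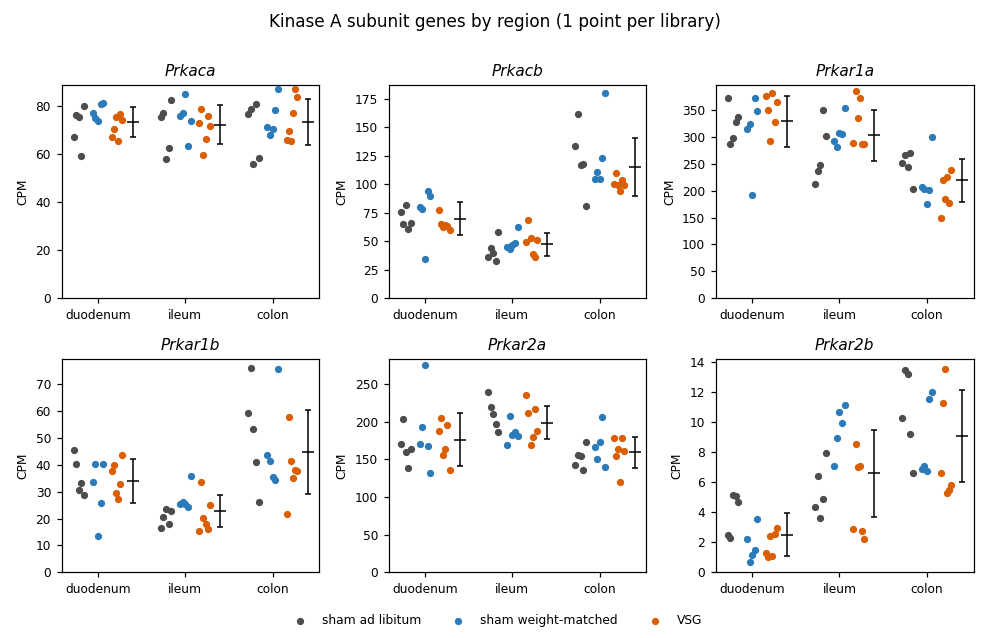
TMM-scaled CPM (y axis, linear from 0, scaled per gene) of the 6 kinase A subunit genes by region, with 1 point per library coloured by surgery group and the mean ± SD of each region in black. Prkaca has region means between 72.28 and 73.49 CPM, whereas Prkacb is lowest in ileum and highest in colon.

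A question of the study was whether VSG alters enteroendocrine cells, against sham mice fed ad libitum and against sham mice of matched weight. For these genes 0 of 28 members passed in any comparison. Averaged over the regions, VSG against sham ad libitum gave 0 members (0% of all genes), VSG against sham weight-matched 0 (0.245%) and sham weight-matched against sham ad libitum 0 (0.0529%) by edgeR. At an unadjusted p under 0.05 these gave 1, 0 and 1 members, and DESeq2 gave 0 adjusted calls in each. The member in the first was Prkar2b (-0.50 ± 0.20, edgeR adjusted p = 0.731) and that in the third Pde4b (0.61 ± 0.29, adjusted p = 0.774). Within duodenum, ileum and colon in turn, VSG against sham ad libitum gave 0 members each (0% of all genes in each), as did VSG against sham weight-matched (0.225%, 0.0463% and 0.0595%) and sham weight-matched against sham ad libitum (0%, 0% and 0.0132%). Between 0 and 3 members had an unadjusted p under 0.05 in each, and DESeq2 gave 0 adjusted calls in each. In duodenum all VSG libraries shared a D5 index, whereas both sham groups were split over this index and another. Surgery comparisons with the index as a covariate are not given. The joint test of whether the surgery differences depended on region gave 0 members (0% of all genes), with 3 at an unadjusted p under 0.05 (Adcy5, Prkar2b and Adcy2).

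Adcy8, Adcy5 and 5 members of high level had the following differences. Averaged over the regions, VSG minus sham ad libitum was 0.02 ± 0.22 for Adcy8, -0.01 ± 0.29 for Adcy5, -0.09 ± 0.09 for Adcy6, 0.03 ± 0.06 for Prkaca, -0.05 ± 0.10 for Prkacb, 0.02 ± 0.08 for Prkar1a and 0.17 ± 0.10 for Pde9a (log2 fold change ± standard error). VSG minus sham weight-matched was 0.04 ± 0.22 for Adcy8, -0.36 ± 0.27 for Adcy5, -0.02 ± 0.09 for Adcy6, -0.07 ± 0.06 for Prkaca, -0.16 ± 0.10 for Prkacb, 0.04 ± 0.08 for Prkar1a and 0.03 ± 0.10 for Pde9a. The median absolute value over the tested members was 0.11 and 0.13, beside 0.10 and 0.12 over all genes tested. These comparisons share the VSG mice, and a p that misses the threshold does not show that levels were equal. The fit had no term for the mouse, although most mice gave a library in each region. The standard errors of these averages may therefore be too small.

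The lowest unadjusted p values within a region belonged to Adcy2 in ileum and Prkar2b in duodenum. Adcy2 in ileum was at 29.91, 40.67, 49.28, 51.52 and 52.91 CPM in sham ad libitum mice and at 56.5, 66.67, 75.41, 76.42 and 106.5 in sham weight-matched mice. The 6 VSG mice ran from 48.83 to 113.6 CPM. This gene was picked for its low p among many comparisons. Sham weight-matched and ad libitum mice did not overlap, as for 1.51% of all genes tested, with a difference of 0.77 ± 0.26 (unadjusted p = 0.0048, adjusted p = 0.504), and VSG minus sham ad libitum was 0.73 ± 0.25 (adjusted p = 0.561).

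Prkar2b in duodenum was at 2.306, 2.463, 4.691, 5.061 and 5.109 CPM in sham ad libitum mice, at 0.6994, 1.156, 1.46, 2.22 and 3.526 in sham weight-matched mice and from 1.012 to 2.921 in VSG mice. The groups overlapped. The differences from sham ad libitum were -1.04 ± 0.36 for VSG (adjusted p = 1) and -1.11 ± 0.39 for sham weight-matched mice (adjusted p = 0.615). Adcy5 in colon was at 9.679, 11.71, 13.24, 13.91 and 19.29 CPM in sham weight-matched mice, between 17.39 and 33.37 in VSG mice and between 11.33 and 30.51 in sham ad libitum mice. VSG minus sham weight-matched was 0.84 ± 0.39 in colon and -1.45 ± 0.52 in ileum (adjusted p = 0.569), and the test of the dependence on region did not pass (unadjusted p = 0.00635, adjusted p = 1).

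**Figure D5:**
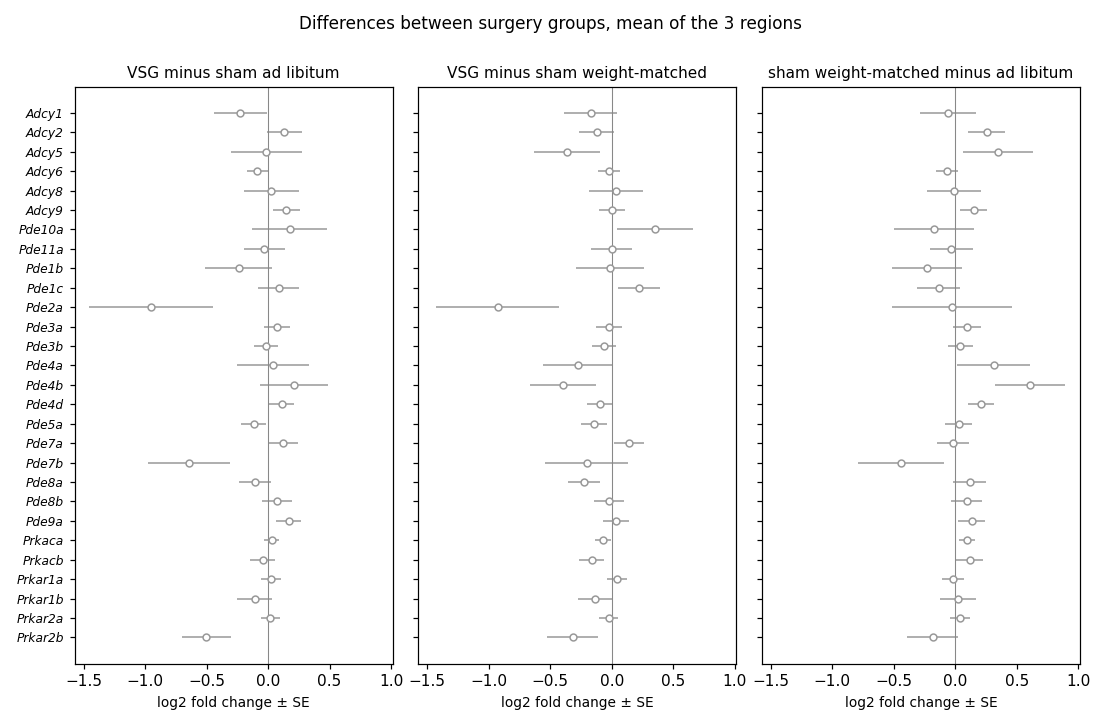
Log2 fold changes (x axis, ± standard error) of the 28 tested members between surgery groups, averaged over the 3 regions. All points are open, since 0 members passed the adjusted threshold, and the widest errors belong to genes of low level such as Pde2a.

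Other genes of the pathway were taken from lists written from textbook roles, with earlier results of these data known. Their counts stand beside the 55.0% of all genes that differed between colon and duodenum and the 49.2% between colon and ileum, and are not results about the lists. For these genes no values with the D5 index as a covariate are given, so their region differences carry the confounding of index and region. Their differences from duodenum include the library of mouse 27, except where Pck1 is given without it. Of 7 G protein alpha genes tested, 5 differed between colon and duodenum (1 higher and 4 lower in colon, with 55.0% of all genes called) and 6 between colon and ileum (3 and 3, with 49.2%). Gnai1, an inhibitory alpha subunit, was lower in colon than in ileum by -2.20 ± 0.18 (adjusted p = 1.48e-14), at 8.969 ± 2.947 against 41.73 ± 13.94 CPM. Gnao1, inhibitory and neuroendocrine, was lower in colon than in duodenum by -1.15 ± 0.15, and Gnal, a stimulatory alpha subunit of olfactory cells, was lower in ileum than in duodenum by -1.56 ± 0.22. Gnao1 and Gnal overlap other genes in part. Gnas, the main stimulatory subunit, was at 471.9 ± 36.16, 380.2 ± 29.46 and 497.8 ± 37.73 CPM, lower in ileum than in duodenum by -0.31 ± 0.05 (adjusted p = 7.52e-06).

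Only 2 of 9 guanylyl cyclase and natriuretic receptor genes were tested, and both were lower in colon than in ileum and duodenum. Gucy2c, the receptor for guanylin and uroguanylin, which enterocytes also express, was at 529.0 ± 42.1, 531.4 ± 56.79 and 399.5 ± 37.13 CPM, lower in colon than in ileum by -0.41 ± 0.06 (adjusted p = 1.27e-07). Npr1, a receptor for natriuretic peptides, was lower in colon than in ileum by -3.14 ± 0.45, at 0.8309 ± 1.366 against 6.754 ± 2.623 CPM, and its exons overlap another gene in part. Of the retinal-type Pde6 genes 3 of 6 were tested and all 3 were lower in colon than in duodenum, led by Pde6c, a cone subunit, at 3.154 ± 1.686 CPM in duodenum and 0.1265 ± 0.2074 in colon.

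Of 10 tested effectors other than kinase A, 8 differed between colon and duodenum, 3 higher and 5 lower in colon (55.0% of all genes). Cnga3, a cone channel, was lower in colon than in ileum by -2.38 ± 0.40. Prkg1, cyclic GMP-dependent kinase 1, was higher in colon than in duodenum by 4.06 ± 0.53 in the fit, but its duodenum level was only 0.1504 ± 0.3391 CPM and its colon level 2.005 ± 1.162. The kinase A inhibitors were tested in 3 of 3, with Pkib lower in ileum than in duodenum by -0.83 ± 0.20, Pkig higher there by 0.30 ± 0.09 and Pkia higher in colon than in duodenum by 0.66 ± 0.17.

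Of 8 tested A-kinase anchoring proteins, 4 differed between colon and duodenum (3 higher and 1 lower in colon, a share below the 55.0% of all genes), with Akap13 higher by 0.52 ± 0.09 and Akap1 by 0.49 ± 0.10. Akap6 was lower in ileum than in duodenum by -2.68 ± 0.52, at 0.5351 against 2.705 CPM. Of the 6 CREB family and coactivator genes, Creb1 was lower in colon than in duodenum by -0.35 ± 0.08, Crtc3 higher there by 0.45 ± 0.10 and Crtc2 higher in colon than in ileum by 0.53 ± 0.08.

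Of 8 genes known to be induced through CREB, 7 differed between colon and duodenum, 4 higher and 3 lower in colon (55.0% of all genes). Nr4a2, an orphan nuclear receptor, was at 47.18 ± 13.81 CPM in duodenum, 27.57 ± 7.65 in ileum and 6.443 ± 1.615 in colon, a difference of -2.87 ± 0.14 between colon and duodenum (adjusted p = 6.11e-23, lower in 15 of 15 mice). Nr4a3, of the same family, was lower there by -3.32 ± 0.40. Pck1, an enzyme of gluconeogenesis, was higher in colon than in ileum by 1.60 ± 0.30, and it was the only pathway gene past the threshold in a surgery comparison, lower after VSG than in sham weight-matched mice in duodenum by -2.22 ± 0.52 (adjusted p = 0.0477). Without the duodenum library of mouse 27 this was -1.05 ± 0.45 and did not pass (adjusted p = 1).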

How the data were processed

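Raw read counts per gene, as deposited by the authors, came from strand-preserving total RNA libraries (50-base single-end reads) that the study aligned with STAR 2.5.1 to GRCm38, and use of strand in the counting was not given in the sources used here. Members were matched by symbol and the pathway and marker lists written from textbook roles, all with earlier results of these data known. Gene models were from GENCODE M21, which matched 53360 of 53465 identifiers. Counts were filtered with filterByExpr (minimum count 10, minimum total 15), scaled by TMM and fitted with edgeR 4.0.16 (R 4.3.3) by the robust quasi-likelihood method with 9 group means, over 15126 genes with Benjamini-Hochberg adjustment at 0.05. Region differences were averaged over surgery groups, and surgery differences over regions or taken within one. CPM per kilobase used the union of exons.

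Full values are given for members of largest difference between regions (up to 5 per direction) and of highest level per length (3 per family), and for up to 3 genes of each pathway list. Alternatives were DESeq2 1.42.0, its size factors in edgeR, other filters, leaving out each mouse, the D5 library index (4 values) as a covariate and the mouse as a replicate block (edgeR, or limma 3.58.1 voom). Numbers in the labels name the mouse, so libraries of 1 animal are paired across regions; over 2000 genes the 46 same-mouse pairs had a median correlation of deviations of 0.123, and 27 were over 0.1. Libraries of 1 group were compared as 105 pairs, and 0 pairs were alike within sampling noise. The test was checked on simulated counts. Some results are not reported here.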

Additional observations from a re-analysis of the deposited data

Results flagged for a closer look

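In each surgery group and region, a library whose CPM lay far from the others by Dixon's ratio was listed for every tested member. Of 252 groups searched 23 were listed, from 14 libraries, and chance lists about 1 in 20 groups.

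The duodenum library of sham weight-matched mouse 27 accounted for 5. It had 7.226 CPM of Pde1c (others 31.08 to 37.77), 34.25 of Pde3b (66.72 to 71.9), 14.16 of Pde8a (29.83 to 32.07), 33.96 of Prkacb (78.34 to 93.98) and 133.4 of Pde9a (46.85 to 54.85). Its enteroendocrine marker sum was the lowest among duodenum libraries (11567 CPM) and its enterocyte sum the highest (36938 CPM), and the part of these cells in the values was not tested.

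Sham weight-matched mouse 31 accounted for 6. Its colon library had 180 CPM of Prkacb (others 104.2 to 123), 300.2 of Prkar1a (176 to 206.6), 75.68 of Prkar1b (34.25 to 43.71) and 62.18 of Pde4d (49.25 to 51.82). Its ileum library had 62.39 CPM of Prkacb (43.21 to 48.03) and 35.71 of Prkar1b (24.5 to 26.08).

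Sham ad libitum mouse 32 had 11.33 CPM of Adcy5 (others 25.46 to 30.51) and 3.626 of Pde4b (0.2448 to 1.218) in colon, 1.769 of Pde2a in ileum (0 to 0.2558) and 101.8 of Pde3a in duodenum (67.08 to 73.84). VSG mouse 11 had 19.54 CPM of Adcy2 in colon (34.29 to 41.31), 2.209 of Adcy5 in ileum (0.1395 to 0.5487) and 77.13 of Prkacb in duodenum (60.13 to 64.98). The remaining values were 10.97 CPM of Pde10a in colon of VSG mouse 28, 4.217 of Pde2a in colon of sham ad libitum mouse 19, 5.373 of Pde4b in colon of mouse 27, 48.56 of Pde5a in ileum of VSG mouse 18 and 143 of Pde9a in ileum of VSG mouse 25.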

How the results depend on the processing

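With the D5 library index as a covariate, 2 members in place of 12 differed between ileum and duodenum, 9 in place of 20 between colon and duodenum and 17 in place of 21 between colon and ileum. Of the calls made without it, 11 of 12, 13 of 20 and 5 of 21 ended. The counts with the index therefore include members called only with it. Under it 4 differences turned direction: Adcy2 (0.2345) and Pde1b (-0.3753) between ileum and duodenum, and Pde5a (-0.259) and Pde11a (0.2056) between colon and duodenum. Index and region are confounded and cannot be told apart for most duodenum libraries. Differences from duodenum under this covariate depend on 4 sham duodenum libraries of index 1, that of mouse 27 among them. What part that library had in the calls that ended or turned was not tested. Leaving out each mouse gave 8 to 14 members between ileum and duodenum (8 without mouse 21), 19 to 22 between colon and duodenum and 18 to 21 between colon and ileum. With the mouse as a replicate block the counts were 13, 20 and 21 (fixed, edgeR) and 13, 21 and 21 (random, voom). Over all settings 1 of 12, 6 of 20 and 16 of 21 calls passed each time, and of 1501 values of single differences 1397 kept direction and side of the threshold, 100 no longer passed and 4 turned direction. Surgery counts were 0 in every setting run. DESeq2 called 2 pathway genes in place of 1 between VSG and sham weight-matched duodenum. With longest transcripts as lengths 14 of 49 shares moved by over 1 SD. Leaving out the duodenum library of mouse 27 was added after seeing the data. Members under about 1 CPM, such as Pde2a, are limited by depth.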
